A study of Mus musculus with 4 samples.

Results

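The BCL2 family genes considered here are Bcl2, Bcl2l1, Mcl1, Bax, Bak1, Bbc3, Pmaip1, Bcl2l11, Bid and Bad, 10 of the 21853 protein-coding genes of the mouse annotation, chosen by name for their part in apoptosis. ChIP-seq peak lists for KMT9alpha, KMT9beta and H4K12me1 (monomethylation of lysine 12 of histone H4) from mouse colorectal tumour organoids were read at their promoters and across their gene bodies. The organoids are 1 clone, clone 3 at passage 14, labelled as AOM/DSS tumour organoids; azoxymethane (AOM) with dextran sulfate sodium (DSS) is a chemical model of colitis-associated colorectal cancer. They were kept in culture with EGF; the labels mention 1 µM tamoxifen and vehicle without assigning either to a library, and give no genotype, so all libraries are described as 1 condition. Each antibody had 1 library, an input library is not analysed here, and no value below has a replicate check.

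Proteins of the BCL2 family decide whether the outer membrane of the mitochondrion is opened in a cell under stress. BCL2, BCL-XL (the product of Bcl2l1) and MCL1 keep it closed, BAX and BAK form the pores that let cytochrome c out, and BH3-only proteins carry death signals to both groups. In the intestinal epithelium, PUMA (the product of Bbc3) is a main mediator of p53-dependent death after DNA damage. KMT9 is a methyltransferase made of a KMT9alpha and a KMT9beta subunit, and H4K12me1 is its known histone product. Gene expression was not measured, and a peak is not a level of transcription.

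The lists held 26146 KMT9alpha, 90349 KMT9beta and 60289 H4K12me1 peaks on the assembled chromosomes, and the depth of the libraries is unknown. Peak scores are the authors' and are compared only within a list; in the KMT9alpha list 5011 peaks reach 3100, where the scale is near its ceiling. A promoter is 1 kb either side of the start of any protein-coding transcript. Promoters of 8 of 8 epithelial marker genes carried both subunits and 7 carried all 3, against 2 of 8 with KMT9alpha, 3 with KMT9beta and 0 with H4K12me1 for immune and stromal markers. All 8 immune and stromal markers lie in the 2 lowest of 5 classes of promoter CpG content, where 5.61% and 22.4% of all genes carry KMT9alpha, so these counts do not check the label.

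Sequence before the starts is shown first, because these are the stretches on which the subunits lie and because members differ in where the mark falls on them. Each line gives the 150 bases before an annotated start of the named gene, in mm10 (GRCm38), read 5′ to 3′ on the strand of the gene, outside any annotated exon and wholly inside the KMT9alpha and KMT9beta peaks; capitals mark CpG dinucleotides. The stretches of Bcl2, Mcl1, Bax, Bbc3 and Bid also lie wholly inside an H4K12me1 peak, whereas that of Bcl2l11 lies in a gap between H4K12me1 peaks.
Bcl2 (chr1:106714275-106714424, minus strand): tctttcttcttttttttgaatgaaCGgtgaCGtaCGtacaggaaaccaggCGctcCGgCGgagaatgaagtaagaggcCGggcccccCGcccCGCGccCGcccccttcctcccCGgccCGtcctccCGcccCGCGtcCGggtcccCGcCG
Mcl1 (chr3:95658638-95658787, plus strand): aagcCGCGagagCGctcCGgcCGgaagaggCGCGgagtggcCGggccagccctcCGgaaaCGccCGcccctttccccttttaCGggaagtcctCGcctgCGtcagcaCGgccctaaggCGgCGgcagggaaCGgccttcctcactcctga
Bax (chr7:45466899-45467048, minus strand): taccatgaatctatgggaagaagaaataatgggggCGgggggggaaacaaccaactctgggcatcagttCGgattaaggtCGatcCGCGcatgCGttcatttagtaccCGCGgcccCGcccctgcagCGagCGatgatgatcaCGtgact
Bbc3 (chr7:16309466-16309615, plus strand): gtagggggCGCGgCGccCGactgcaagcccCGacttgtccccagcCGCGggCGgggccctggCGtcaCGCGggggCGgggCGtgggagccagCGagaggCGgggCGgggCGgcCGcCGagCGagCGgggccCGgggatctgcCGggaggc
Bid (chr6:120916854-120917003, minus strand): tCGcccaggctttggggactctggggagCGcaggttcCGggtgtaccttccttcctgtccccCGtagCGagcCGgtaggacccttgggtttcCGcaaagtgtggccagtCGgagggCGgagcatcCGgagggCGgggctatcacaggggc
Bcl2l11 (chr2:128125888-128126037, plus strand): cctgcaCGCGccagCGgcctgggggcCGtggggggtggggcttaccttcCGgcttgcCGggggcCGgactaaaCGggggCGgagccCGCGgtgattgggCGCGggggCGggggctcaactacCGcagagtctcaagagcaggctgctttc

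CpG dinucleotides numbered 23 in the stretch of Bbc3, 19 in that of Bcl2, 18 in Mcl1, 15 in Bcl2l11, 12 in Bax and 11 in Bid. Over the 1 kb either side of the principal start, the observed to expected CpG ratio of the members had a median of 0.686, between 0.263 at Bak1 and 0.855 at Mcl1, against a median of 0.482 for all genes. Of the 5 equal classes of this ratio, 4 members lay in the highest (Bcl2, Mcl1, Pmaip1 and Bcl2l11), 4 in the next (Bcl2l1, Bbc3, Bid and Bad), and Bax and Bak1 in classes 3 and 2. The motif GGGCGG, searched on both strands from 250 bases before to 50 after the principal start, was present at 9 of 10 members, with Bcl2l1 the exception. It was present at 45.3% of all promoters of that length, and at 68.7% and 76.9% of those in the classes with the next highest and the highest CpG ratio. CACGTG was found at Bax alone of the members (7.76% of all promoters), TGACGTCA at Pmaip1 alone (2.51%), CCAAT at Bcl2l11 alone (38.6%) and TATAAA at none (12.5%).

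Bax, Bbc3 and Pmaip1 are well-known p53 targets, so the p53 response element was looked for as well, after the sequences had been seen. A match was 20 bases, as a pair of half-sites with no spacer and at most 3 mismatches to the consensus, in the same window. Matches were found at these 3 of the 10 members, with 3 mismatches at Bax and Bbc3 and 2 at Pmaip1, and at 5.97% of all promoters. The limit of 3 equals the count at Bax and Bbc3, so the overlap with the named targets is not a test. At the other 7 members the best stretch had 5 or 6 mismatches. The matches of Bax and Bbc3, with bases that fit the consensus in capitals, begin 211 and 130 bases before the start. They lie inside peaks of KMT9alpha and H4K12me1 of these genes. The whole window searched lies inside those peaks, so any match in it would too. The match of Pmaip1, which has the fewest mismatches of the members, is not printed. It lies inside the KMT9alpha peak of Pmaip1 but in no H4K12me1 peak, because the promoter windows of that gene held none. The matches therefore do not all lie under the mark. A match is a description of letters and does not show that p53 binds.
Bax (chr7:45467090-45467109, minus strand): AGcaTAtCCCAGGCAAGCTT
Bbc3 (chr7:16309486-16309505, plus strand): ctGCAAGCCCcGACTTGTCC

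Both KMT9 subunits were present at every member promoter. KMT9alpha was found at 10 of 10 (exact Clopper-Pearson 95% interval 69.2 to 100%, covering counting over genes only), against 54.2% of all protein-coding genes, and KMT9beta at 10 of 10, against 65.1%. H4K12me1 was found at 8 of 10 (80.0%, 44.4 to 97.5), against 44.9%, and the same 8 carried all 3, against 35.5%. Only 5 carried all 3 when the midpoint of a peak had to lie in the window. The mark was missing from the promoters of Bak1 and Pmaip1, the state of both subunits without H4K12me1, which 15.5% of all genes share. CpG-rich promoters carry more peaks in general: in the highest class KMT9alpha, KMT9beta and H4K12me1 were present at 92.6%, 96.4% and 73.6% of genes, and in class 2, that of Bak1, at 22.4%, 44.8% and 29.4%. Of genes with both subunits, 69.6% carried H4K12me1, which is near the 8 of 10 of the members. All 3 were present at 3 of the 4 members in the highest class, against 69.2% of its genes, at 4 of 4 in the next, against 55.3%, at Bax in class 3, against 36.5%, and not at Bak1 in class 2, against 12.9%. Among genes with both subunits the mark varied less by class, from 62.2% in class 3 to 76.2% in the highest. It was present at 69.0% of such genes in class 2, so the 12.9% also counts genes without both subunits, which Bak1 has. With 10 genes these shares are coarse. The intervals for KMT9alpha, KMT9beta (69.2 to 100%) and all 3 (44.4 to 97.5%) lie above the shares over all genes, and that for H4K12me1 includes it; the members were chosen by name and are rich in CpG, and nothing particular to the family is read from them.

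**Figure D1:**
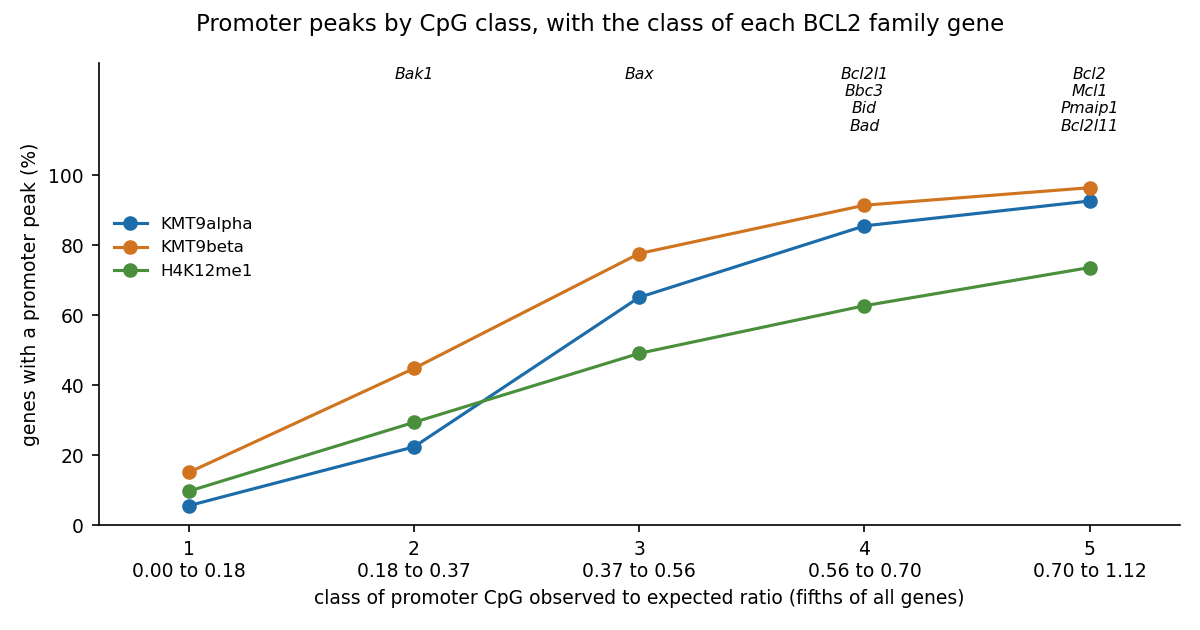
Share of all protein-coding genes with a promoter peak of each library (%, lines) in 5 equal classes of promoter CpG ratio, with the members of each class named above. The share of KMT9alpha climbs to 92.6% in the highest class, where 4 of the 10 members lie, and Bak1 stands in class 2, where it is 22.4%.

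KMT9alpha scores were at the ceiling at each member. Bax had 3122.68, and Bcl2, Bcl2l1, Mcl1, Bak1, Bbc3, Pmaip1, Bcl2l11, Bid and Bad each had exactly 3100, so that these 9 cannot be ordered. A score of 3100 or more was reached by 10 of 10 members, against 45.6% of genes with a KMT9alpha promoter peak (5405 of 11854). In the highest CpG class that share was 72.9%, in the next 43.1%, and in classes 3 and 2, those of Bax and Bak1, 21.7% and 18.8%. KMT9alpha peaks of members had a median width of 2000 bp (1248 at Bax to 3064 at Bcl2l11), against 1357 bp over all genes with one.

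Anti-apoptotic genes carried all 3 libraries, with unlike strengths of the mark. Bcl2 (ENSMUSG00000057329; chromosome 1, 106538178 to 106714274, minus strand) scored 3100 in the KMT9alpha list, 268.52 in the KMT9beta list and 332.11 in the H4K12me1 list, and the H4K12me1 score stood at percentile 95.7 among genes with such a peak. Bcl2l1 (chromosome 2, 152780668 to 152831728, minus strand) scored 3100, 349.64 and 151.03 in the same order, with H4K12me1 at percentile 68.7. Mcl1 (chromosome 3, 95658788 to 95663176, plus strand), which encodes a short-lived protein, had 3100, 299.2 and 64.43. The mark at Mcl1 was the weakest of the members, at percentile 7.4, and its promoter is the richest in CpG among them. That peak was lost when only peaks at or above the median score of the list were kept, and also with equal peak numbers per list.

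The effectors differed from each other. Bax (chromosome 7, 45461697 to 45466898, minus strand) scored 3122.68 for KMT9alpha, 418.35 for KMT9beta, then 379.13 for the mark, at percentiles 98.8, 85.9 and 97.1. Its partner Bak1 (chromosome 17, 27019810 to 27029009, minus strand) had 3100 for KMT9alpha and 247.9 for KMT9beta, and its promoter windows held no peak of the mark. The nearest H4K12me1 peak of Bak1, with a score of 70.29, lay 3111 bp from the nearest start, in an intron. The KMT9alpha peak of Bak1 did not reach the principal start and was centred 926 bp downstream of it; it covered the start of a shorter coding transcript, while the KMT9beta peak covered both starts. Ggnbp1 starts 250 bp from Bak1 on the other strand, and the peaks of both subunits reach the promoter window of either gene, so they cannot be given to one of them.

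BH3-only genes ranged from the strongest mark among the members to none. Bbc3 (chromosome 7, 16308393 to 16318205, plus strand) scored 3100 for KMT9alpha, 550.82 for KMT9beta, then 490.63 for the mark, and H4K12me1 at its promoter was the strongest of the members, at percentile 98.8. Bad (chromosome 19, 6941861 to 6951899, plus strand), whose product is held in check by growth factor signalling, had 3100, 714.77 and 480.47, with H4K12me1 at percentile 98.7. Its highest H4K12me1 peak, to which that percentile belongs, lay in the window of a start near the end of the gene. This peak was centred beyond the end of the gene. Another, with a score of 267.14, covered the principal start. Bad lies 354 bp from the start of Gpr137 on the other strand, and its KMT9alpha and KMT9beta peaks reach the promoter window of that gene too. Bcl2l11 (chromosome 2, 128126038 to 128162547, plus strand), which encodes BIM, had 3100, 726.06 and 106.14, and its KMT9beta peak was the widest of the members, at 6237 bp, against a median of 1467 bp over all genes with one. Bid (chromosome 6, 120891930 to 120916853, minus strand), which links death receptors to mitochondria, had 3100, 214.41 and 245.05. Pmaip1 (chromosome 18, 66458533 to 66465565, plus strand), which encodes NOXA, had 3100 for KMT9alpha and 282.95 for KMT9beta. The Pmaip1 promoter windows held no peak of the mark. The nearest, with a score of 104.13, lay 2176 bp downstream of its nearest start, in an intron. Its CpG ratio of 0.78 is close to those of Bcl2 (0.785) and Bcl2l11 (0.782). Of genes with both subunits in that CpG class, 76.2% carried the mark, so its absence is not rare there.

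Among the members, H4K12me1 scores ran in the order Bbc3, Bad, Bax, Bcl2, Bid, Bcl2l1, Bcl2l11 and Mcl1, and 5 of these 8 were at percentile 89.5 or above. Their median of 289 compares with 104 over the 9820 genes with an H4K12me1 promoter peak. The place of Bad in this order rests on the peak at its last start. Its peak over the principal start scored 267.14, below Bax (379.13) and Bcl2 (332.11). KMT9beta scores had a median of 324 in the members, between 214 at Bid and 726 at Bcl2l11, against 206 over 14219 genes. With 1 library per antibody, neighbours in these orders cannot be told apart.

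**Figure D2:**
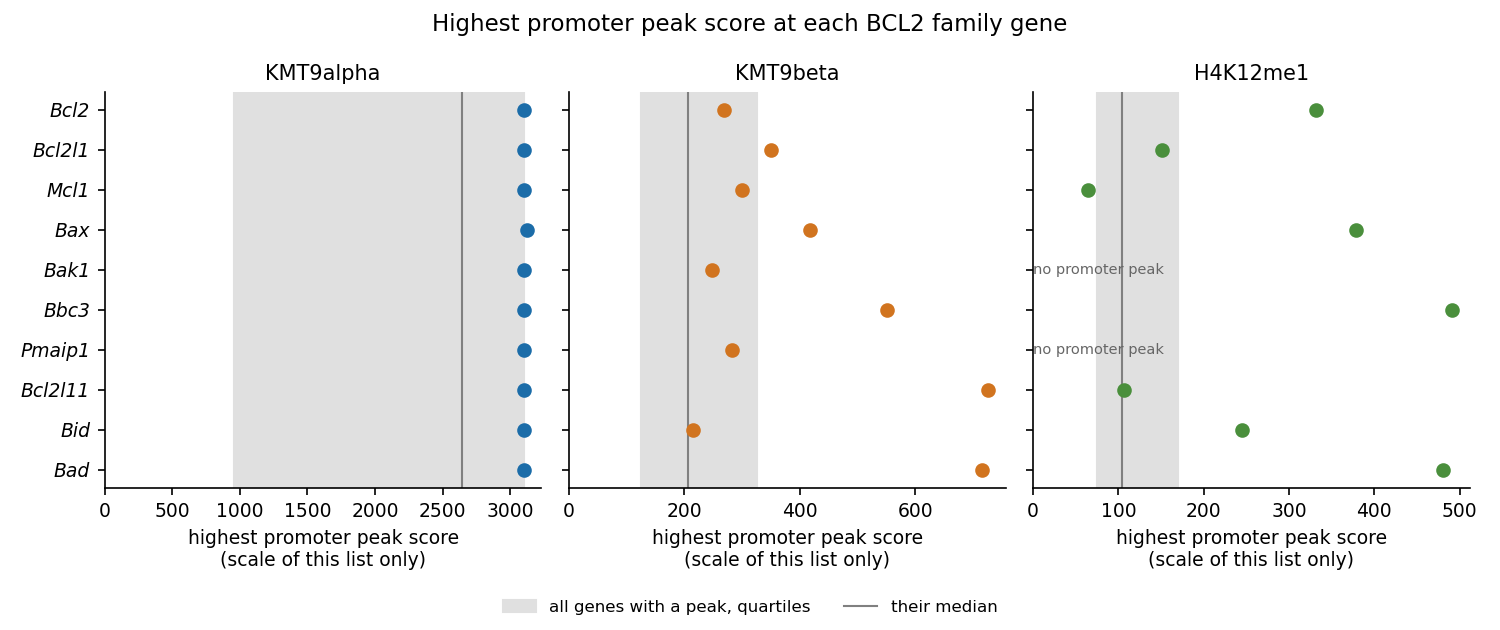
Highest promoter peak score of each member (points) in each list; grey bands give the quartiles, and lines the median, of all genes with a promoter peak. KMT9alpha scores sit at 3100 or above for each member, while H4K12me1 scores range from 64.43 at Mcl1 to 490.63 at Bbc3 and are missing at Bak1 and Pmaip1.

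Subunits and mark lay on the same sequence at most members. The highest KMT9alpha and KMT9beta promoter peaks overlapped at 10 of 10 members, against 93.6% of genes with both; those of KMT9alpha and H4K12me1 overlapped at 7 of 8, against 86.8%; and those of KMT9beta and H4K12me1 at 7 of 8, against 87.1%. These shares are close to the genes at large. The exception in both pairs was Bad, whose KMT9alpha peaks at its first and last start tie at 3100; when any promoter peak was allowed, 8 of 8 overlapped. At Mcl1, Bbc3, Bcl2l11 and Bid the H4K12me1 peak lay wholly inside the KMT9alpha peak, and at Bcl2l1 and Bcl2 by 97.4% and 91.8% of its length. Bax was the reverse, with the KMT9alpha peak of 1248 bp wholly inside an H4K12me1 peak of 1873 bp. The stretch shared by all 3 measured from 1007 bp at Bid to 1932 bp at Bbc3, and held 154 CpG dinucleotides at Mcl1 and 69 at Bax.

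The principal start was covered by the highest KMT9alpha peak at 9 of 10 members, against 86.1% of genes with one, by KMT9beta at 10 of 10, against 82.0%, and by H4K12me1 at 6 of 8, against 55.4%. Centres of the highest H4K12me1 peaks lay downstream of the start at each marked member, from 162 bp at Bcl2 to 1086 bp at Bcl2l11, with 10286 bp at Bad, where the last start carried the highest peak. The H4K12me1 peak over the principal start of Bad was centred at -8 bp, just upstream. Over all genes with such a peak the median centre was 217 bp downstream of the start as well. At Bcl2l11 the mark flanked the start instead of covering it: 1 peak with a score of 74.3 ended before the start and 1 with a score of 106.14 began after it, 1367 bp apart, inside a KMT9beta peak that spanned both (the sequence before this start is printed above). With promoters narrowed to 500 bp either side, neither of these peaks counted and Bcl2l11 lost the mark.

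**Figure D3:**
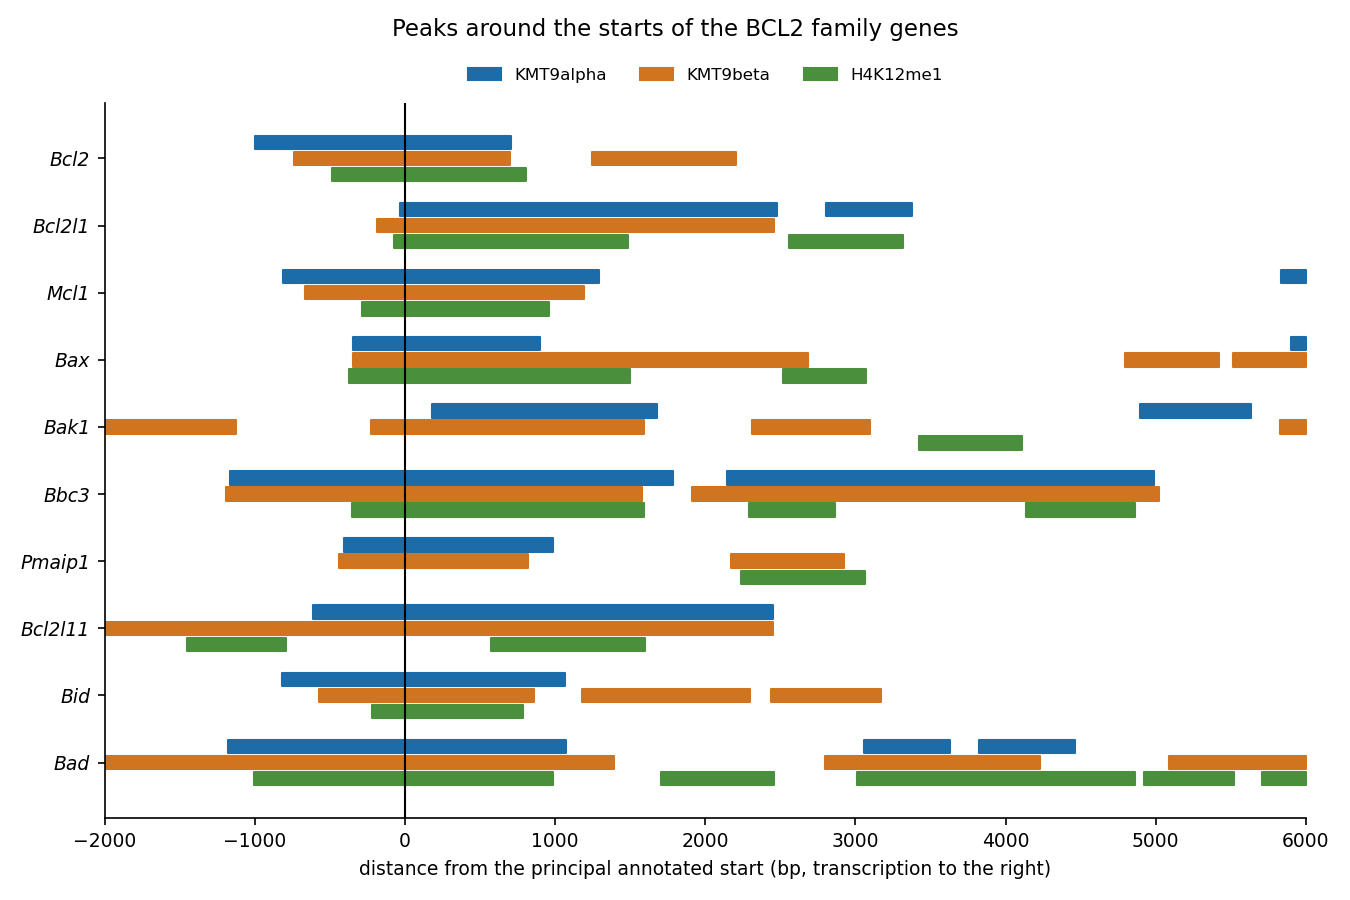
Peaks of the 3 libraries around the principal start of each member (bars, position in bp from the start, drawn along the direction of transcription). Bars of all 3 colours stand over the start except at Bak1 and Pmaip1, which lack H4K12me1 there (the KMT9alpha peak of Bak1 also begins downstream of it), and at Bcl2l11, where H4K12me1 leaves a gap of 1367 bp.

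Gene bodies, here the gene span without its promoter windows, were read next, and counts in them follow the lengths of the lists. A KMT9alpha peak was found in the body of 5 of 10 members, against 19.8% of all genes, a KMT9beta peak in 9 of 10, against 49.5%, and an H4K12me1 peak in 9 of 10, against 41.0%. These calls depend on gene length, which ran from 4389 bp at Mcl1, the member with no body peak, to 176097 bp at Bcl2. There were 8 KMT9alpha, 32 KMT9beta and 20 H4K12me1 body peaks in all. At or above the median score of each list, 1 KMT9alpha peak (that of Bbc3), 18 KMT9beta and 11 H4K12me1 peaks were left. With equal peak numbers per list, the body peaks numbered 8 for KMT9alpha, 7 for KMT9beta and 9 for H4K12me1.

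Bbc3 had the KMT9alpha peak of the highest score in a member body: at 16311760 to 16314608 on chromosome 7, scoring 3100. A KMT9beta peak scoring 430.07 spanned it, and H4K12me1 peaks scoring 50.62 and 82.26 lay inside it. The KMT9alpha body peaks of the other members scored 288.65 or less. Peaks covered 42.2% of the Bbc3 body for KMT9alpha, 72.3% for KMT9beta and 19.3% for H4K12me1, at percentiles 99.3, 95.8 and 88.6 among 6014 genes with a body of 0.5 to 2 times its length. In the body of Bad the shares were 35.7%, 72.8% and 86.6%. Bad lies on chromosome 19, where H4K12me1 peaks cover 9.59% of gene bodies, against 2.23% in the genome. Cover of gene bodies on that chromosome was also higher for KMT9alpha, 2.31% against 0.727%, and for KMT9beta, 17.5% against 5.53%. Without Bad the share of the members' body bases under H4K12me1 was 4.07%, and it was 5.64% with it. For KMT9alpha these shares were 2.47% and 3.1%, and for KMT9beta 11.9% and 13.1%.

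The body of Bcl2, 174001 bp long, carried 0 KMT9alpha peaks, 7 KMT9beta peaks and 3 H4K12me1 peaks, and KMT9beta covered 3.99% of it, at percentile 70.3 among 2359 genes with a body of 0.5 to 2 times its length, whose median is 1.51% and mean 4.85%. H4K12me1 and KMT9beta coincided at 106586177 to 106586933 in the long intron and at 106541882 to 106542466 in the last exon. At Pmaip1, which lacks the mark at its promoter, the single H4K12me1 and KMT9beta body peaks overlapped each other. Bak1 had 1 H4K12me1 body peak, which overlapped no peak of either subunit.

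**Figure D4:**
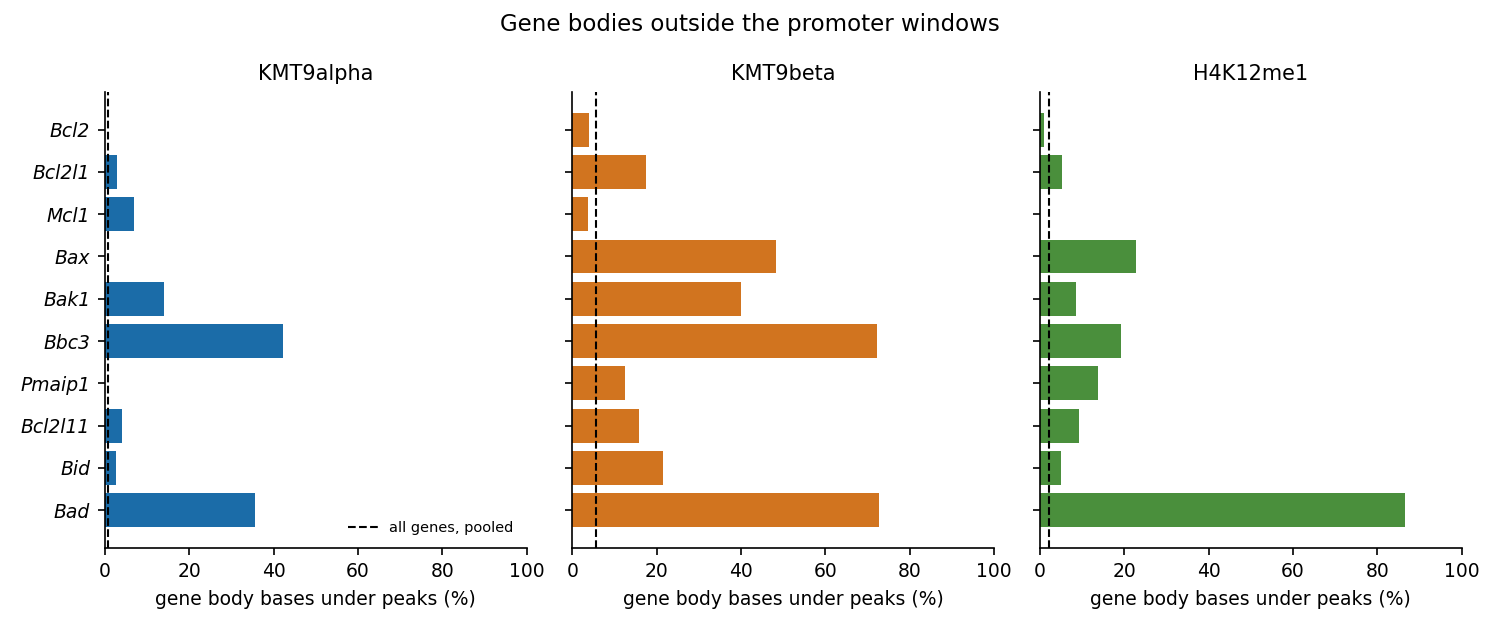
Share of gene body bases under peaks (%, bars) for each member and library, with the share over the bodies of all protein-coding genes as dashed lines. Bars of Bad and Bbc3 are the longest for KMT9alpha and KMT9beta, and Bad reaches 86.6% for H4K12me1, where Mcl1 is at 0.

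Other genes of the pathway were read from lists written from general knowledge. Of 13 further BCL2 family genes, 7 carried KMT9alpha, 8 KMT9beta and 6 all 3; the top KMT9alpha scores among those 6 were those of Bcl2l13 and Bok (3100 each), Bcl2l12 at 1683.1 and Bmf at 795.19. None of the 3 was called at Bcl2a1a, Bcl2a1b, Bcl2a1d, Bcl2l10 and Bcl2l15; the first 3 are near-identical copies, and the sources used here do not say how reads were shared among them. Bmf and Bik are BH3-only genes like 5 of the members, but their KMT9alpha scores, 795.19 and 204.76, were below the ceiling that each member reached. Bik was named after its values were seen.

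Apoptosome and caspase genes carried KMT9alpha at 14 of 14 promoters, KMT9beta at 13 and all 3 at 7. Among those 7 the highest KMT9alpha scores were those of Apaf1 (3187.64), Birc2 and Cycs (3100 each). In the death receptor arm both subunits were present at 8 of 8 and all 3 at 4, namely Fadd, Casp8, Tnfrsf1a and Tnfrsf10b. Among 7 upstream regulators both subunits were present at 7 and all 3 at 5, including Foxo1, Foxo3, Ddit3 and Myc. Of all genes, 54.2% carried KMT9alpha and 65.1% KMT9beta, and 11137 of 21853 carried both. The lists were not matched for CpG class, and nothing particular to the pathway is read from these counts. Trp53, which drives Bbc3 and Pmaip1, and its inhibitor Mdm2 were in the state of Bak1 and Pmaip1, with KMT9alpha scores of 3100, KMT9beta scores of 158.93 and 170.96 and no mark; they were named after their values were seen. All 3 were present at 8 of 10 members, against 22 of these 42 genes (52.4%) and 35.5% of all genes. Foxo3, a transcription factor that drives BIM and PUMA, had the promoter scores most like Bbc3 and Bad among genes of these lists. The summed differences were 4.3 and 4.5 percentile points over the 3 libraries, and the KMT9alpha part is tied at the ceiling. At Bad the KMT9beta and H4K12me1 scores come from peaks at different starts, so the likeness is not that of a single start. For Bcl2l11, which encodes BIM, the most alike gene was Bok, at 44.7 points. Foxo1 was the most alike for Bcl2, Bcl2l1 and Bid, at 29.0, 19.4 and 35.8 points. A link between regulator and target was not tested.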

How the data were processed

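ChIP-seq reads were mapped to mm10, per the labels' protocols with STAR, while the submitters' processing notes name Bowtie2; the sources used here name no versions, peak calling threshold or control. The deposited lists give a position and a score per peak, and peak names begin with MACS; no source used here states the scale of the score, so the authors' scores were compared only within a list. Peaks off the assembled chromosomes were dropped: 81 KMT9alpha, 124 KMT9beta and 120 H4K12me1 peaks. Genes came from GENCODE M21 on GRCm38, the assembly behind mm10, and sequences from RefSeq's copy of GRCm38.p6; each peak ended within the chromosome lengths of that assembly. Peaks and windows overlapped when they shared 1 bp. The principal start is that of the APPRIS principal transcript, the most upstream where there are several. Percentiles rank the highest promoter peak of a gene among all genes with one. Gene bodies leave out the gene's own promoter windows, and bases under the tail of a promoter peak count as covered. The genes named were the 10 members and, from the 4 pathway lists, those with no promoter peak and up to 4 per list with all 3 peaks and the highest KMT9alpha score, besides genes that share a member's promoter and those most like a member. Bik, Trp53 and Mdm2 fall outside this rule, a gene that it names is not reported here, and marker genes are given as counts. Members and lists were chosen with earlier results of these data known. With 1 library per antibody no p-value was computed, and intervals cover counting over genes only. The overlap code was tested on simulated data. Software: scipy 1.17.1 and pandas 2.3.3 under Python 3.11.15, with numpy 2.4.6 and matplotlib 3.10.9.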

Additional observations from a re-analysis of the deposited data

How the results depend on the processing

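With promoter windows of 500 bp, 2 kb and 5 kb, principal starts only, peaks at or above the median score, or equal peak numbers per list (26146), the counts of members with each library stayed within 1.5 times those reported. All 3 fell to 5 of 10 when the peak midpoint had to lie in the window, with Bax, Bcl2l11 and Bad each losing a library. At 5 kb Bak1 and Pmaip1 carried all 3. Body counts moved with the threshold. At or above the median score, 1 member had a KMT9alpha body peak (1 peak), and H4K12me1 and KMT9beta body peaks numbered 11 and 18. With equal peak numbers 5 members had an H4K12me1 body peak, and H4K12me1 and KMT9beta body peaks numbered 9 and 7. All 3 were then present at 4 apoptosome and caspase genes, 2 death receptor genes and 3 further BCL2 family genes (2 at or above the median score), and at 11 apoptosome and caspase genes with 5 kb windows. The causes were not tested, except that the median rule admits fewer peaks of each list. Equal peak numbers do so for KMT9beta and H4K12me1 only, because KMT9alpha has the shortest list. Leaving out Bad was chosen after seeing the data. No paired analysis was possible because each antibody has 1 library. Depth is unknown, so a missing H4K12me1 peak means that none was called.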
